A study of Mus musculus with 48 samples.

Results

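The MHC class I pathway and its immunoproteasome were followed in RAW264.7 macrophages through 10 genes: the class I heavy chains H2-K1 and H2-D1, their light chain B2m, the peptide transporter and loading genes Tap1, Tap2 and Tapbp, the proteasome subunits Psmb8, Psmb9 and Psmb10, and the regulator Nlrc5. They were taken by symbol, with no threshold on a measured value, and all 10 were found among the 49568 genes of the count table. RAW264.7 is a mouse macrophage line, here treated for 72 h, with the medium refreshed after 48 h. In 4 of the 8 groups the cells received PBS or 1 of the synthetic peptides 65-79*LE, *SE or *PE (called LE, SE and PE) at a dose of 100 µg/ml. The other 4 received IFN-γ (5 ng/ml), either alone or combined with 1 of these peptides. The peptides are stretches of the human HLA-DR β chain, encoded by alleles linked to lupus risk (LE), to rheumatoid arthritis risk (SE) or to protection from autoimmune disease (PE). All groups come from 1 cell line.

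Class I molecules show short peptides from the cell's own proteins to CD8 T cells. Proteasomes cut the proteins, the TAP transporter moves the fragments into the endoplasmic reticulum, and loading factors fit them into a groove formed by the heavy chain, which is held by β2-microglobulin. IFN-γ is a classic inducer of this route in macrophages, where it replaces the constitutive catalytic subunits of the proteasome with the immunoproteasome subunits encoded by Psmb8, Psmb9 and Psmb10. NLRC5 is the transactivator of class I genes and acts at their promoters with a complex that binds X and Y boxes.

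Of the 48 libraries, replicates 1 to 3 of each group carry letters and replicates 4 to 6 carry numbers after HLA. Total counts ranged from 16.5 M to 26.9 M in the libraries with letters and from 14.1 M to 42.6 M in the others, where M stands for mega. Over 20 IFN-γ target genes, the mean log2 CPM (counts as a share of the library's total, on a scale where the total is 1 M, with 0.5 added) was 1.55 to 1.76 in the 12 letter-labelled libraries without IFN-γ and 6.39 to 6.90 in the 12 with it. Among the 24 HLA-labelled libraries 12 contradicted their label: the 6 labelled LE or PE alone were high, and the 6 labelled IFN-γ or SE with IFN-γ were low. The results below therefore rest on the 24 letter-labelled libraries, with 3 per group. Of 8 macrophage markers, 7 were present in all of these and Mertk was at or under 0.41 CPM. The summed macrophage markers were 8726 to 10868 CPM without and 6161 to 8603 CPM with IFN-γ, while the 17 markers of T cells, B cells, fibroblasts and epithelial cells summed to at most 1.84 CPM per cell type. In such bulk samples, fewer cells in a given state and less RNA per cell cannot be told apart.

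The 10 genes lie on 3 chromosomes of GRCm38. H2-K1 (chr17:33996017-34000347), Tapbp, Psmb9, Tap1, Psmb8, Tap2 and H2-D1 (chr17:35262730-35267499) are in the MHC on chromosome 17. B2m lies on chromosome 2 (chr2:122147686-122153083), and Psmb10 (chr8:105935735-105938444) and Nlrc5 (chr8:94434356-94527272) on chromosome 8. Promoter windows of 250 bases before the RefSeq start (GRCm38.p6, the C57BL/6 reference) were found for 8 of the 10. Because RAW264.7 derives from BALB/c mice, its class I alleles may differ from these letters. The 2 stretches below are shown because H2-K1 and B2m encode the chains of the class I molecule. In them capitals mark the letters GGGNNTTCC (an NF-κB site), GAAANNGAA (the core of an interferon-stimulated response element) and ATTGG (a Y box), on either strand. Neither stretch overlaps an exon in GENCODE M21.
H2-K1, chr17:34000348-34000597, minus strand: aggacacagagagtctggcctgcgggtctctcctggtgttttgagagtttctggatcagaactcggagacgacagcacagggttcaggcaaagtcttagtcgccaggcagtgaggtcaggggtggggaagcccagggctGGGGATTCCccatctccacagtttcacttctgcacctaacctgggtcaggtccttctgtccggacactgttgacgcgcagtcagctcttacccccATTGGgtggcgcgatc
B2m, chr2:122147437-122147685, plus strand: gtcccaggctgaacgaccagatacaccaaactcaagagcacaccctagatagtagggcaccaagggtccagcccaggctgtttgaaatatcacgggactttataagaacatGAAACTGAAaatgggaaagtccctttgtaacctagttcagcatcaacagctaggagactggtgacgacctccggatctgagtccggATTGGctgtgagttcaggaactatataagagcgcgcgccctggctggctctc

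Shorter stretches of 30 bases show the corresponding matches of 3 other members. They lie in an annotated exon of H2-D1, Psmb8 and Psmb9 respectively. Capitals mark the NF-κB letters in H2-D1, TTCNNNGAA (a gamma-activated site) in Psmb8, and the reverse complement of the Y box in Tap1.
H2-D1, chr17:35262912-35262941, plus strand: agcccagggctGGGGATTCCccatctcctc
Psmb8, chr17:34198087-34198116, plus strand: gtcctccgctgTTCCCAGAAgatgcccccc
Tap1, chr17:34187321-34187350, plus strand: ggggctcggctttCCAATcagcggctgcgc

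The H2-K1 and H2-D1 stretches around the NF-κB letters were identical at 29 of 30 bases. Tap1 and Psmb9, read in opposite directions from neighbouring starts, share 225 bases of their windows, so the Y box shown for Tap1 is the same site as the one before Psmb9. The NF-κB letters occurred in 2 of the 8 members and in 4.98% of 32851 windows, the response element core in B2m and 7.13% of windows, and the gamma-activated letters in Psmb8 and 7.02% of windows. Y box letters occurred in 6 members and in 33.8% of windows, and TGACGCA, part of an X2 box, in 0 members and 1.75% of windows. These matches are letters in a window and were not measured as binding. Only the exact letters given were searched, on either strand, so other forms of these elements would be missed, in H2-K1 and H2-D1 as well.

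IFN-γ alone raised all 10 genes against PBS. A gene was called when its fold change was over 1.5 and its adjusted p under 0.05 (edgeR's quasi-likelihood test with Benjamini-Hochberg adjustment over all genes tested), and 9.79% of the 12242 genes tested were called higher. The log2 fold changes of the 10 genes ran from 0.78 to 3.06 with a median of 1.87, beside a median of -0.0087 over all genes. In the plot of levels by library, every library with IFN-γ stood above every library without it for each of the 10 genes. The share of all genes whose libraries separate in this way is not given, here or for the separations below. CPM values below are scaled to the library total, while fold changes come from the fit with TMM scaling.

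**Figure D1:**
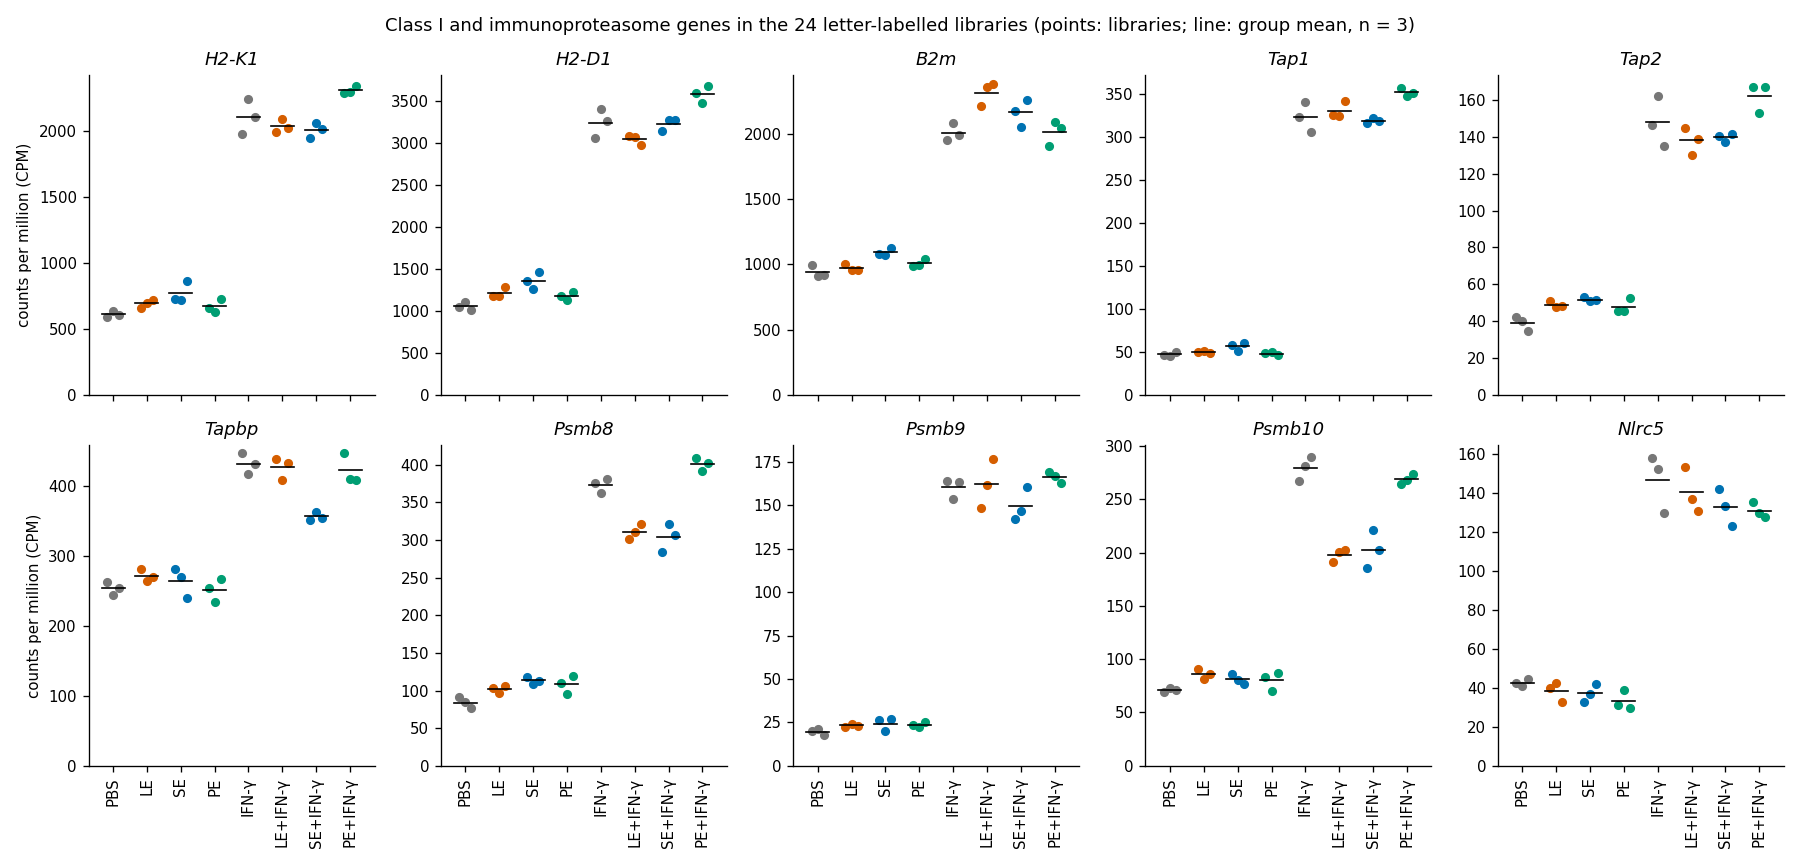
Level of each of the 10 genes (y axis, CPM, from 0) in the 24 letter-labelled libraries by group (x axis). Points are libraries and lines are means of 3. The 4 groups with IFN-γ on the right of each panel lie above the 4 without it, and Psmb8 and Psmb10 are lower with LE or SE than with IFN-γ alone or PE.

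Psmb9, the subunit that takes the place of Psmb6, had the largest fold change of the 10. It was at 19.8, 21.3 and 17.5 CPM in the PBS libraries and at 163.9, 153.7 and 163.6 CPM with IFN-γ, an 8.31-fold rise (log2 3.06, SE 0.086, adjusted p = 2.97e-10 by edgeR). Tap1, an ATP-binding subunit of the peptide transporter, was at 46.9, 45.9 and 49.9 CPM in PBS and at 322.8, 340.8 and 306.3 CPM with IFN-γ (6.88-fold, log2 2.78, SE 0.075, adjusted p = 2.17e-10 by edgeR). For both genes the 3 libraries of a group were close together and the groups were far apart. Tap2, the other transporter subunit, rose less than Tap1, from 42.2, 39.9 and 34.8 CPM to 146.3, 162.1 and 134.9 CPM (3.84-fold, log2 1.94, SE 0.091).

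The other 2 immunoproteasome subunits rose less than Psmb9. Psmb8, which takes the place of Psmb5, was at 91.6, 84.2 and 76.1 CPM in PBS and at 375.2, 362.3 and 380.6 CPM with IFN-γ (4.49-fold, log2 2.17, SE 0.079). Psmb10, which takes the place of Psmb7, was at 69.4, 72.6 and 70.9 CPM in PBS and at 266.9, 281.5 and 289.5 CPM with IFN-γ (3.98-fold, log2 1.99, SE 0.072). The groups did not overlap for either gene.

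The chains of the class I molecule started from higher counts and rose by smaller factors. H2-K1 was at 592.8, 635.3 and 607.8 CPM in PBS and at 1976, 2241 and 2103 CPM with IFN-γ (3.48-fold, log2 1.80, SE 0.082). H2-D1 went from 1046, 1107 and 1017 CPM to 3055, 3407 and 3259 CPM (3.10-fold, log2 1.63, SE 0.082), and B2m from 992.4, 912.8 and 918.3 CPM to 1948, 2085 and 1987 CPM (2.16-fold, log2 1.11, SE 0.074). In all 3 genes the lowest IFN-γ library was above the highest PBS library. Only uniquely aligned reads were counted, and the class I genes are near-identical in part, so the split of reads between H2-K1, H2-D1 and their relatives is uncertain.

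Nlrc5 and Tapbp mark the range within the set. Nlrc5 was at 42.7, 41.1 and 44.6 CPM in PBS and at 158.2, 152.7 and 129.9 CPM with IFN-γ (3.47-fold, log2 1.80, SE 0.082), a factor close to those of H2-K1 and Tap2. Tapbp, which encodes tapasin, the bridge between TAP and the empty class I molecule, rose least, from 263.1, 244.5 and 253.5 CPM to 447.4, 417.8 and 430.8 CPM (1.72-fold, log2 0.78, SE 0.066, adjusted p = 3.44e-06 by edgeR). Its 95% interval of 0.64 to 0.93 lay below those of the other 9 genes, the nearest being B2m at 0.95 to 1.27.

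Per kilobase of exon the order differed from that of the fold changes. The length used was the summed exons of all annotated transcripts of a gene, so the order between genes depends on that annotation. In PBS, B2m was highest at 1094 ± 51.7 CPM per kilobase (SD, n = 3), followed by H2-D1 at 409.6 ± 17.9 and H2-K1 at 208.3 ± 7.34. Tapbp, Psmb10 and Psmb8 followed at 69.9 ± 2.57, 41.6 ± 0.93 and 24.8 ± 2.29. Tap2 at 10.3 ± 1.0 and Tap1 at 8.69 ± 0.38 were separated by little, and Psmb9 at 5.33 ± 0.51 and Nlrc5 at 5.04 ± 0.21 overlapped.
With IFN-γ, Tap1 at 59.0 ± 3.15 and Psmb9 at 43.8 ± 1.58 stood above Tap2 at 39.1 ± 3.60, with Psmb9 and Tap2 overlapping by library. Nlrc5 was lowest at 17.3 ± 1.77 and B2m highest at 2333 ± 82.2. Psmb10 at 163.8 ± 6.72 passed Tapbp at 119.1 ± 4.08, and Psmb8 was at 110.2 ± 2.78.

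Model B asks what IFN-γ does in the presence of a peptide, by comparing each peptide with IFN-γ against the peptide alone. All 10 genes were called higher with LE and with PE, and 9 of 10 with SE, where, in that order, 19.1%, 12.1% and 15.1% of the 12947 genes tested were called higher. The exception was Tapbp with SE, which was at 280.8, 270.2 and 240.6 CPM with SE alone and at 352.0, 363.4 and 354.1 CPM with SE and IFN-γ. The groups did not overlap and the adjusted p was 2.66e-05 by edgeR, but the 1.31-fold difference was under the 1.5-fold minimum. The median log2 fold change over the 10 genes was 1.497 with LE, 1.36 with SE and 1.72 with PE, beside 1.87 for IFN-γ against PBS.

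**Figure D2:**
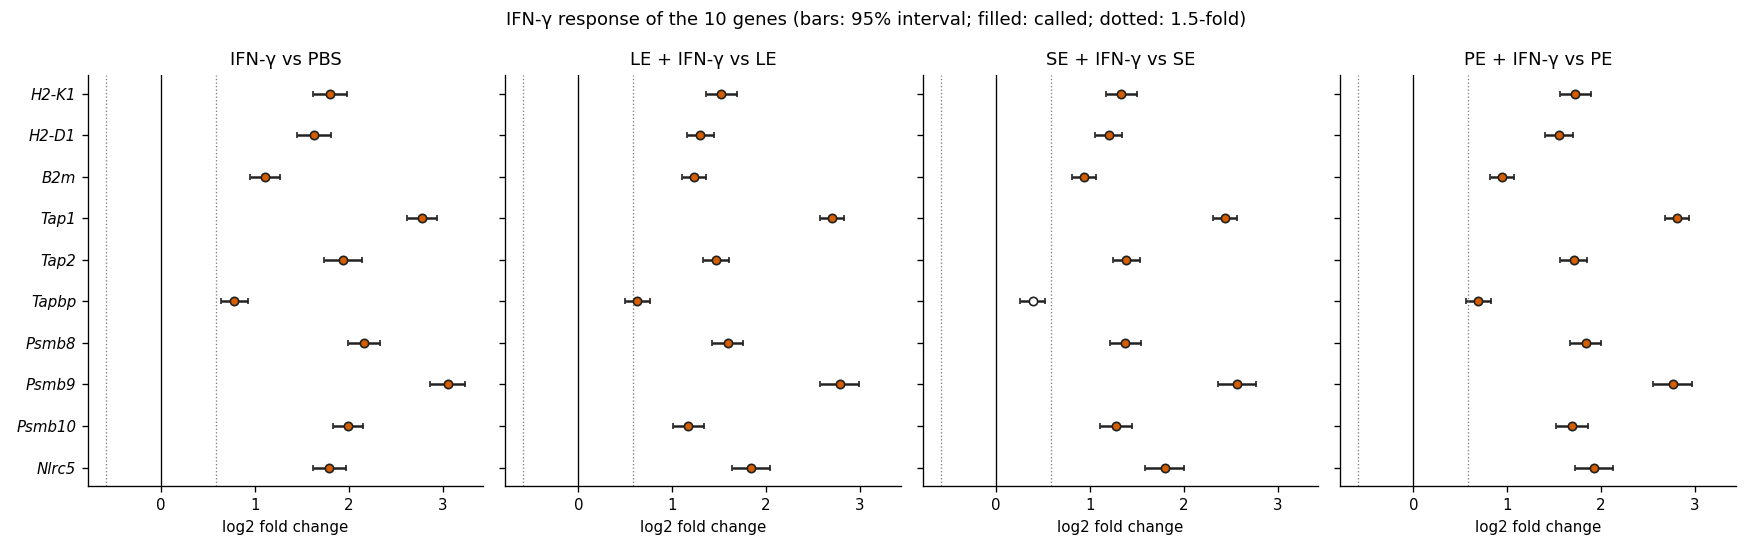
Log2 fold change (x axis) of the 10 genes (y axis) for IFN-γ against PBS and for each peptide with IFN-γ against that peptide. Bars are 95% intervals, filled points are called genes and dotted lines mark 1.5-fold. Psmb9 and Tap1 are farthest to the right in all 4 panels and Tapbp is lowest, with its point open for SE.

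Psmb9 and Tap1 kept the largest factors with each peptide. Tap1 had log2 fold changes of 2.70 (LE), 2.44 (SE) and 2.81 (PE), and Psmb9 had 2.78, 2.57 and 2.77. Nlrc5, with 1.84, 1.80 and 1.92, stayed near its 1.80 without peptide. Psmb10 had 1.17 (LE), 1.28 (SE) and 1.69 (PE), beside 1.99 without peptide.

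Whether a peptide changed the size of the IFN-γ response was tested as an interaction in a fit of all 8 groups. With LE, Psmb10 was called, and with SE, Psmb8 and Psmb10, where 18.9% and 7.96% of the 13096 genes tested were called in either direction. Psmb10 had an interaction of -0.82 on the log2 scale with LE (SE 0.11, adjusted p = 4.29e-06 by edgeR) and -0.71 with SE (SE 0.11, adjusted p = 7.72e-05 by edgeR). Psmb8 had -0.78 with SE (SE 0.11, adjusted p = 3.22e-05 by edgeR) and -0.58 with LE, which is under the fold minimum. Thus the IFN-γ response of these 2 subunits was smaller in the presence of the peptide. A higher level with the peptide alone and a lower level with peptide and IFN-γ both enter such an interaction. Psmb8 with SE had a log2 difference of 0.51 against PBS, and of -0.27 with IFN-γ against IFN-γ alone. In the same order Psmb10 had 0.33 and -0.48 with LE, and 0.27 and -0.44 with SE. These interactions share the PBS and IFN-γ libraries. Across 12731 genes with a length, the interaction had a Spearman's rho with summed exon length of 0.31 for LE and 0.26 for SE. Psmb10 has 1705 exon bases and Psmb8 3381, and the part of length in their interactions was not tested.

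Below the fold minimum, more members passed the adjusted p alone in the interaction. They numbered 4 with LE (38.5% of all genes tested) and 8 with SE (19.8%), and each of these was negative. Nlrc5 was near 0 in both, at 0.041 with LE (95% interval -0.24 to 0.32) and 0.0075 with SE (95% interval -0.27 to 0.28). Among the members passing with SE, H2-K1 and H2-D1 had log2 differences of 0.41 and 0.44 for SE alone against PBS. Against IFN-γ alone, SE with IFN-γ had -0.045 and 0.021 for these genes. Tapbp had 0.13 against PBS and -0.25 against IFN-γ. With PE, 0 members and 0 of the 13096 genes passed (0.0%) in edgeR, and DESeq2 also called 0 members. An unadjusted p under 0.05 was reached by 4 members, beside 1073 of the 13096 genes. The members' interactions with PE lay between -0.34 and 0.12.

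Model A asks what a peptide adds to IFN-γ, and the 3 comparisons share the IFN-γ libraries. No member was called with any peptide in edgeR or in DESeq2, while for LE, SE and PE 15.5%, 7.39% and 0.629% of the 12720 genes tested were called in either direction. An unadjusted p under 0.05 was reached by 3, 4 and 5 members, beside 7116, 5386 and 3580 of the 12720 genes. The adjusted p alone was passed by 3, 3 and 1 members in the same order, against 50.5%, 33.4% and 10% of all genes tested.

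Psmb10 had the largest of these differences. It was at 190.8, 200.3 and 202.0 CPM with LE and IFN-γ, at 185.1, 220.8 and 202.3 CPM with SE and IFN-γ, and at 264.4, 268.3 and 274.1 CPM with PE and IFN-γ. All LE and SE libraries lay below all IFN-γ and PE libraries. Against IFN-γ alone the log2 difference was -0.48 with LE (95% interval -0.61 to -0.36, adjusted p = 3.98e-06 by edgeR), -0.44 with SE (-0.57 to -0.31, adjusted p = 2.76e-05 by edgeR) and -0.027 with PE (-0.15 to 0.10).

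Psmb8 was also lower with LE and with SE, at a smaller size. It was at 301.2, 311.2 and 321.0 CPM with LE and IFN-γ, at 284.6, 320.7 and 306.4 CPM with SE and IFN-γ, and at 409.0, 391.2 and 401.9 CPM with PE and IFN-γ. The LE and SE libraries overlapped each other and lay below those of IFN-γ and PE. The log2 difference from IFN-γ was -0.25 with LE (adjusted p = 9e-04 by edgeR), -0.27 with SE (adjusted p = 8.11e-04 by edgeR) and 0.13 with PE (adjusted p = 0.113 by edgeR).

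Psmb9, the remaining immunoproteasome subunit, did not pass in any of these comparisons. Its log2 difference from IFN-γ was 0.032 with LE (95% interval -0.10 to 0.17), -0.071 with SE (-0.21 to 0.065) and 0.079 with PE (-0.057 to 0.22). With LE and IFN-γ its libraries were at 148.6, 161.9 and 176.6 CPM, on both sides of those with IFN-γ alone.

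Of the remaining members, 3 passed the adjusted p in 1 Model A comparison each. B2m was at 2211, 2354 and 2377 CPM with LE and IFN-γ, above all 3 IFN-γ libraries (log2 0.22, SE 0.056, adjusted p = 0.00302 by edgeR). Tapbp with SE and IFN-γ was at 352.0 to 363.4 CPM, below all 3 IFN-γ libraries (log2 -0.25, SE 0.050, adjusted p = 8.57e-04 by edgeR). H2-D1 was at 3594, 3475 and 3678 CPM with PE and IFN-γ (log2 0.17, SE 0.051, adjusted p = 0.0399 by edgeR).

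H2-K1, Tap1, Tap2 and Nlrc5 did not pass in any of the 3 comparisons. Across those 4 genes and 3 peptides, their log2 differences lay between -0.14 and 0.16. The widest 95% intervals among all 10 genes reached -0.61 and 0.34 with LE, -0.57 and 0.25 with SE, and -0.29 and 0.29 with PE. A difference of 1.5-fold (0.58 on the log2 scale) lay outside the 95% interval of each gene, except that of Psmb10 with LE.

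**Figure D3:**
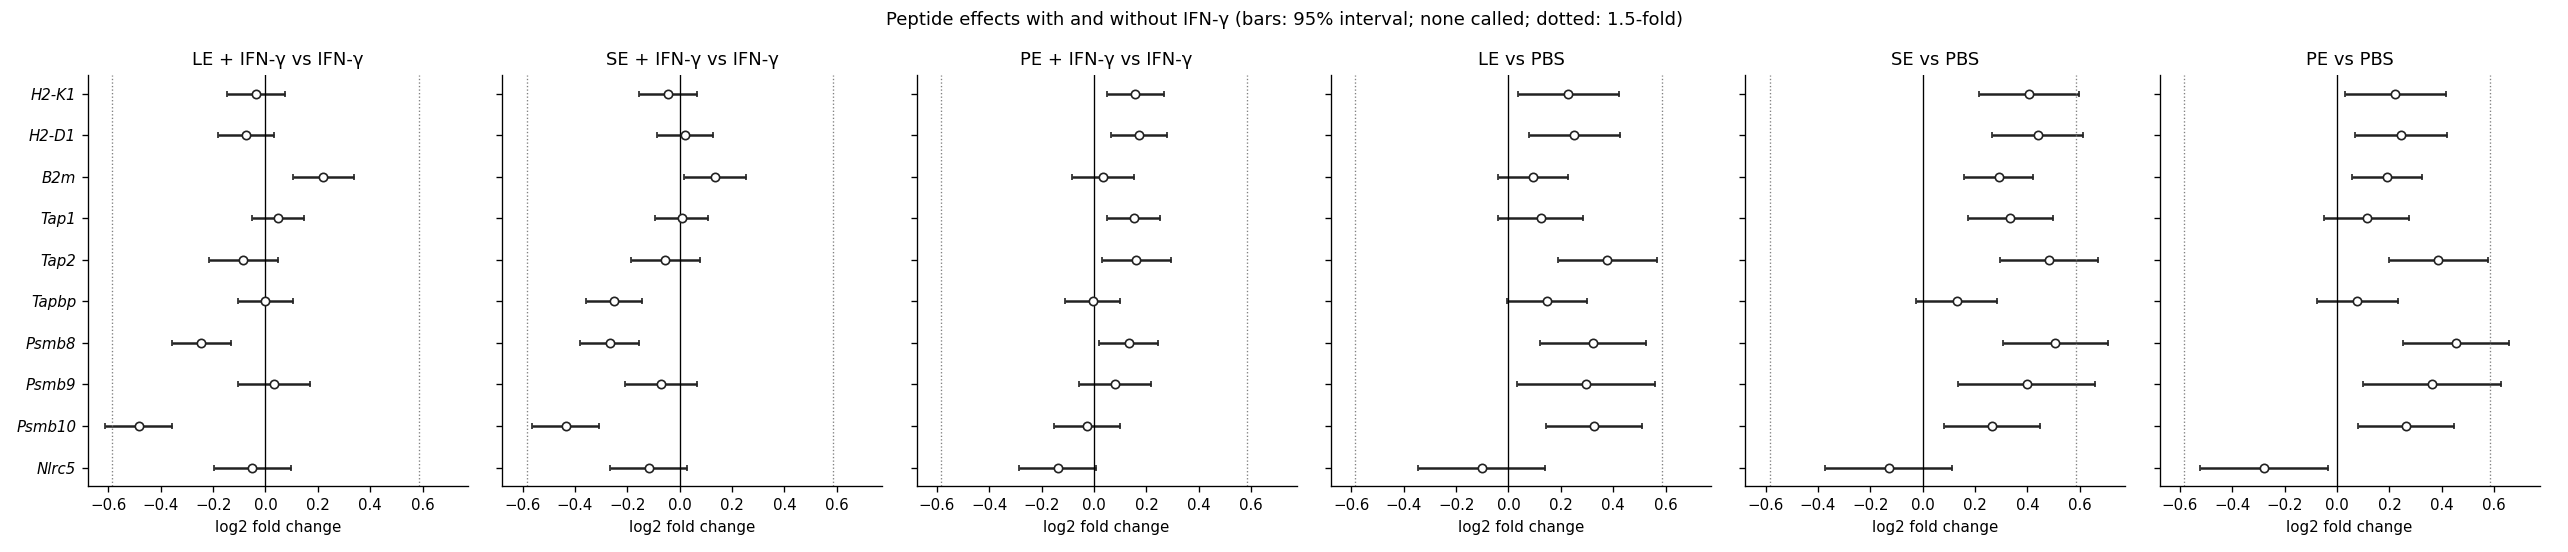
Log2 fold change (x axis) of the 10 genes (y axis) for each peptide with IFN-γ against IFN-γ (left 3 panels) and for each peptide against PBS (right 3 panels). Bars are 95% intervals and dotted lines mark 1.5-fold. No point is past a dotted line, Psmb10 and Psmb8 are left of 0 for LE and SE with IFN-γ, and 9 of 10 points are right of 0 for each peptide alone.

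Peptides were also compared with one another in the presence of IFN-γ. No member was called in edgeR or DESeq2 for LE against SE, LE against PE or SE against PE, where 4.93%, 21.6% and 7.59% of the genes tested were called in either direction. An unadjusted p under 0.05 was reached by 1, 7 and 8 members, beside 5751, 8121 and 5593 of the 12720 genes tested. The adjusted p alone was passed by 1, 6 and 7 members (35.6%, 59.9% and 34.4% of all genes tested). LE and SE differed in Tapbp, higher with LE by 0.25 (SE 0.050, adjusted p = 0.00119 by edgeR). Psmb10 was lower than with PE by a log2 difference of -0.46 with LE (SE 0.061) and -0.41 with SE (SE 0.061), and Psmb8 by -0.38 and -0.40 (SE 0.053 each). H2-K1 differed from PE by -0.19 with LE and -0.20 with SE.

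Peptides without IFN-γ moved the set little. Against the shared PBS libraries no member was called for LE, SE or PE in edgeR or DESeq2, where 0.0242%, 1.92% and 3.13% of the 12420 genes tested were called in either direction. An unadjusted p under 0.05 was reached by 6, 8 and 8 members, beside 1953, 3975 and 4405 of the 12420 genes. By adjusted p alone 0 members passed for LE (0.0242% of all genes), 7 for SE (14.3%) and 5 for PE (20%), all of them higher than in PBS.

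With SE alone, Psmb8 was at 118.5, 109.1 and 112.4 CPM, above all 3 PBS libraries (1.42-fold, log2 0.51, 95% interval 0.30 to 0.71, adjusted p = 0.0082 by edgeR). H2-D1 was at 1356, 1258 and 1468 CPM (log2 0.44, SE 0.082) and H2-K1 at 727.4, 722.7 and 859.9 CPM (log2 0.41, SE 0.090), also above all PBS libraries. Tap2 was at 53.0, 50.9 and 51.3 CPM (log2 0.48, SE 0.088). These rises were a small part of those with IFN-γ, and every library with a peptide alone lay below every library with IFN-γ. Without replicate 2 of each group, Psmb9 was called with SE alone (log2 0.61, adjusted p = 0.0233 by edgeR).

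Nlrc5 leaned the other way with each peptide alone. Its libraries were at 40.1, 42.8 and 32.9 CPM with LE, 32.8, 36.6 and 42.0 CPM with SE, and 31.3, 38.7 and 29.6 CPM with PE. The log2 difference from PBS was -0.10 with LE (95% interval -0.34 to 0.14), -0.13 with SE (-0.37 to 0.11) and -0.28 with PE (-0.52 to -0.033), with an adjusted p of 0.0979 by edgeR for PE.

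Several comparisons, those of the peptides alone among them, went with transcript length across all genes. Spearman's rho between log2 fold change and summed exon length was -0.37 (LE), -0.44 (SE) and -0.45 (PE) against PBS over 12089 genes, which share these libraries, and -0.040 for IFN-γ against PBS over 11914 genes. In Model A it was 0.21 (LE), -0.057 (SE) and -0.39 (PE) over 12368 genes. Between peptides with IFN-γ it was 0.35 for LE against SE, 0.35 for LE against PE and 0.21 for SE against PE. The IFN-γ response within a peptide had 0.22 (LE), 0.17 (SE) and 0.079 (PE) over 12591 genes. The members had a median exon length of 3504.5 bases, beside 4230 bases over the genes tested, and Nlrc5 was the longest at 8493 bases. The part of length in the members' differences was not tested.

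The ratio of each immunoproteasome subunit to the constitutive subunit whose place it takes was taken as a log2 ratio of CPM. It has no correction for length, so it compares groups and does not give which transcript of a pair is more abundant. Psmb8 to Psmb5 was 0.86, 0.62 and 0.48 in the PBS libraries and 2.57, 2.47 and 2.58 with IFN-γ. Psmb9 to Psmb6 went from -4.26, -4.33 and -4.64 to -1.16, -1.33 and -1.21, and Psmb10 to Psmb7 from -0.94, -1.03 and -0.996 to 0.41, 0.58 and 0.42. Each ratio was higher in all IFN-γ libraries than in all PBS libraries.

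**Figure D4:**
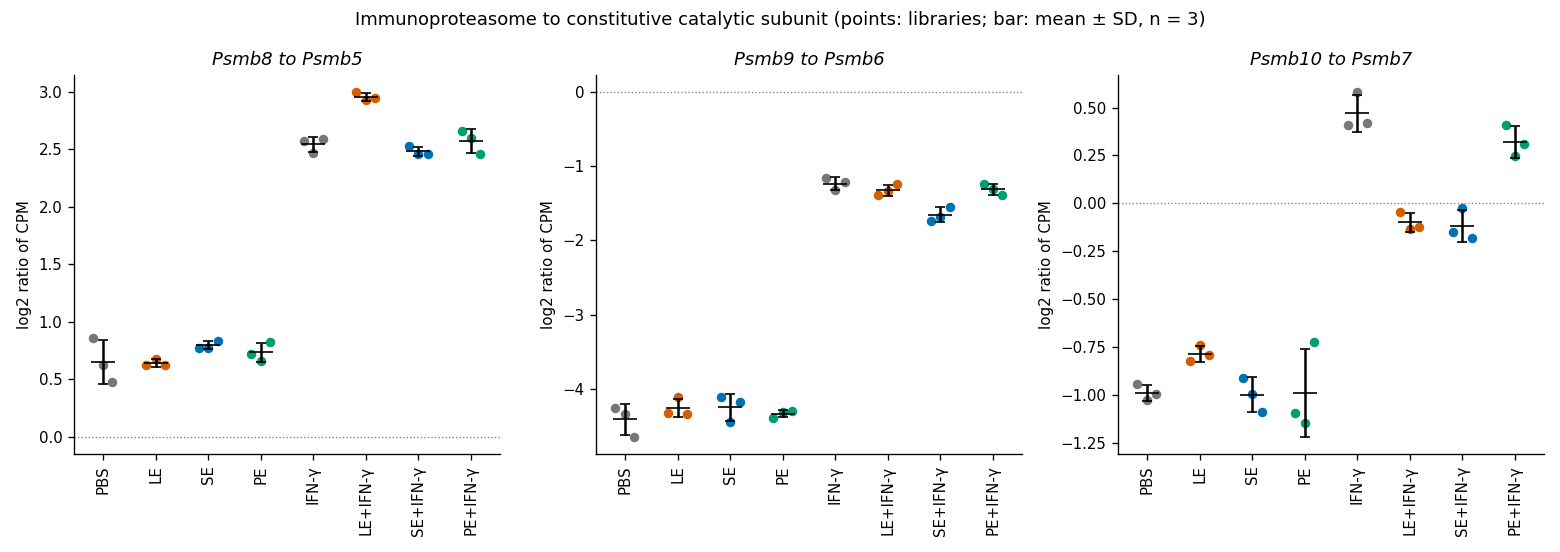
Log2 ratio of CPM (y axis) of Psmb8 to Psmb5, Psmb9 to Psmb6 and Psmb10 to Psmb7 in the 24 letter-labelled libraries by group (x axis). Points are libraries and bars are mean ± SD of 3. Psmb8 to Psmb5 is highest with LE and IFN-γ, and Psmb10 to Psmb7 is lower with LE or SE and IFN-γ than with IFN-γ alone.

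With LE and IFN-γ the 3 ratios parted. Psmb8 to Psmb5 was 2.96 ± 0.035 (SD, n = 3), above 2.54 ± 0.065 with IFN-γ alone, although Psmb8 itself was lower. Psmb5, the constitutive chymotrypsin-like subunit, was at 40.1 ± 2.12 CPM there and at 64.0 ± 1.31 CPM with IFN-γ alone, and was called lower (log2 -0.66, SE 0.074, adjusted p = 9.2e-07 by edgeR).
Psmb10 to Psmb7 was -0.10 ± 0.048 with LE and IFN-γ and -0.12 ± 0.083 with SE and IFN-γ, both below 0.47 ± 0.096 with IFN-γ alone. Psmb9 to Psmb6 was -1.32 ± 0.074 with LE, -1.65 ± 0.10 with SE and -1.31 ± 0.078 with PE, beside -1.23 ± 0.083 with IFN-γ alone. These ratios are descriptions without a test.

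Around the members, the rest of the proteasome moved less. With IFN-γ against PBS, 0 of 3 constitutive catalytic subunits, 0 of 11 other subunits of the 20S core and 0 of 17 subunits of the 19S regulatory particle were called in either direction, beside 18.1% of all genes tested. Their median log2 fold changes were 0.28, 0.23 and 0.13, beside -0.0087 over all genes tested. Of the constitutive subunits, Psmb7 had 0.53 (adjusted p = 2.61e-04 by edgeR) and Psmb5 0.28 (adjusted p = 0.0117 by edgeR). Psmb6 had -0.12 (adjusted p = 0.255 by edgeR), and each was under the 1.5-fold minimum. In the list of proteasome activators and assembly factors 2 of 9 rose, both subunits of PA28, the ring that caps the core after IFN-γ exposure. Psme1 was at 396.3 ± 38.9 CPM with IFN-γ and 120.2 ± 2.84 in PBS (log2 1.74, SE 0.085), and Psme2 at 394.4 ± 11.1 and 157.5 ± 9.20 CPM (log2 1.34, SE 0.073).

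Among 13 other class I and class I-like genes, 11 were tested and 10 of those rose with IFN-γ, where 9.79% of all genes tested were called higher. The median log2 fold change of the 11 was 1.83, beside -0.0087 over all genes tested. H2-T23, which encodes the Qa-1 heavy chain, went from 115.5 ± 9.20 to 545.7 ± 7.15 CPM (log2 2.26, SE 0.075). H2-T22, H2-T10 and H2-Q6 had log2 fold changes of 1.92, 2.03 and 2.35, with the split of reads among near-identical copies uncertain as above. Mr1, which presents vitamin metabolites rather than peptides, was the one gene of this list called in Model A, lower with LE (log2 -0.59, SE 0.11) and with SE (log2 -0.70, SE 0.11). That is 1 of 12 tested with each peptide, where 15.5% (LE) and 7.39% (SE) of all genes were called in either direction.

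Of 10 further loading and trimming genes, 3 rose and 1 fell with IFN-γ, where 9.79% of all genes tested were called higher and 8.28% lower. Tapbpl, a tapasin relative that edits the peptides, went from 21.9 ± 1.14 to 103.5 ± 3.89 CPM (log2 2.26, SE 0.081), a larger factor than Tapbp. Erap1, the aminopeptidase that trims peptides in the endoplasmic reticulum, rose by 1.22 (SE 0.11) and Lap3 by 0.60 (SE 0.074) on the log2 scale, while the cytosolic aminopeptidase gene Npepps had -0.64 (SE 0.069).

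Among these loading and trimming genes, 3 of 10 were called with LE and 2 of 10 with SE in Model A, where 15.5% and 7.39% of all genes were called in either direction. Pdia3, a disulphide isomerase of the loading complex, was at 1589 ± 104.5 CPM with LE and IFN-γ, 1841 ± 42.8 with SE and IFN-γ and 2815 ± 239.4 with IFN-γ alone (log2 -0.81 with LE and -0.59 with SE, SE 0.060 each). Calr, calreticulin, was called lower with LE (3035 ± 154.4 against 5372 ± 388.8 CPM, log2 -0.81, SE 0.061). Lnpep, an aminopeptidase of endosomes used in cross-presentation, was called higher with LE (log2 1.09, SE 0.12) and with SE (log2 0.64, SE 0.12). With PE, 0 of the 10 were called in edgeR, where 0.629% of all genes were.

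Of 15 regulators of the pathway, 4 rose and 1 fell with IFN-γ, beside the same shares of 9.79% and 8.28% over all genes. Irf1, a factor that binds response elements in class I promoters, went from 22.7 ± 1.20 to 160.3 ± 25.3 CPM (log2 2.83, SE 0.11). Irf8 rose by 0.76 (SE 0.077) on the log2 scale. Ciita, the class II counterpart of Nlrc5, had 1 count in the 3 PBS libraries together and 1474 with IFN-γ, a ratio of 1411 with a 95% counting interval of 253 to 55780. The gene that fell was Ifngr2, a receptor chain, named after its values were seen.
With SE and IFN-γ against IFN-γ, Irf1 was called lower (100.9 ± 6.22 against 160.3 ± 25.3 CPM, log2 -0.64, SE 0.091), as was Ciita (13.1 ± 1.39 against 20.9 ± 3.05 CPM, log2 -0.65, SE 0.11). With LE and IFN-γ, the kinase gene Jak1 was called higher (log2 0.78, SE 0.084) and Rfxap, a subunit of the complex that binds X boxes, lower (log2 -0.60, SE 0.10). In Model A, 1 of the 15 regulators was thus higher and 1 lower with LE, and 2 were lower with SE. Of all genes, 15.5% with LE and 7.39% with SE were called in either direction.

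The profile of the members over the 7 groups, taken as the median log2 difference from PBS, was 0.19, 0.28 and 0.14 for LE, SE and PE alone, 1.85 for IFN-γ and 1.72, 1.67 and 1.91 with LE, SE and PE. Among other genes with a mean of at least 10 CPM, the 5 with the smallest mean absolute difference from it were Il12rb1 (0.085 on the log2 scale), Sp110 (0.088), C130026I21Rik (0.10), Slc43a3 (0.11) and Psme1 (0.12). Il12rb1 encodes a chain of the interleukin-12 receptor and Sp110 a nuclear body protein.

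**Figure D5:**
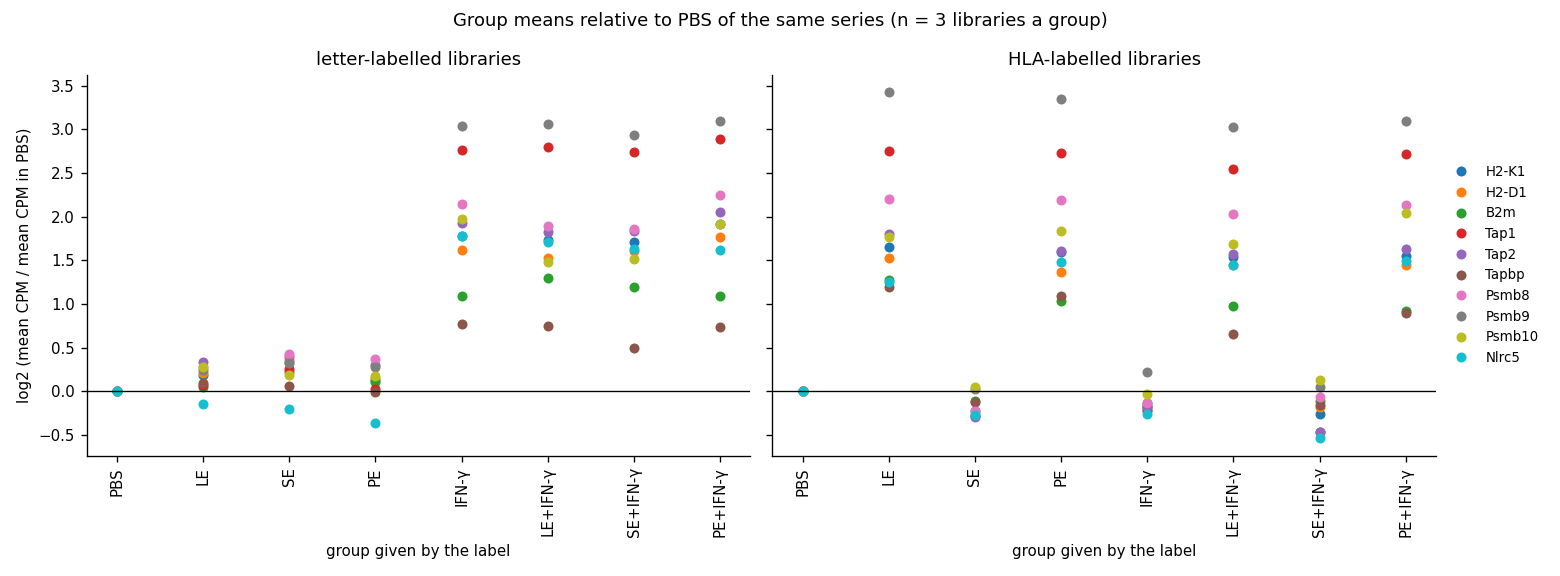
Log2 ratio of the group mean CPM to the PBS mean of the same series (y axis) for the 10 genes, by labelled group (x axis), in the letter-labelled (left) and HLA-labelled (right) libraries, 3 per group. On the left the genes are high in the 4 groups with IFN-γ. On the right they are high in LE, PE and the same peptides with IFN-γ, and near 0 in SE, IFN-γ and SE with IFN-γ.

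The 10 genes did not follow the labels of the HLA-labelled libraries, and whether these labels are right could not be settled here, so the values below are given by label alone. All 10 were above every PBS library of that series in the libraries labelled LE, PE, LE with IFN-γ and PE with IFN-γ, with ratios of mean CPM from 1.58 to 10.8. In those labelled SE, IFN-γ and SE with IFN-γ the ratios were 0.69 to 1.17. Psmb9 was at 84.7 to 87.5 CPM under the LE label, 8.57 to 9.80 CPM under the IFN-γ label and 7.48 to 8.39 CPM under the PBS label. With both series fitted together by label, 0 members were called for IFN-γ against PBS (7 at an unadjusted p under 0.05) or in Model B (0, 7 and 4 in the order LE, SE, PE). The share of all genes called in that fit is not given here.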

How the data were processed

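Poly(A) RNA of RAW264.7 cells had been sequenced from stranded libraries with single-end reads. The authors deposited whole-number read counts per gene (featureCounts, Rsubread 1.5.0p3, GENCODE M12, GRCm38.p5, uniquely aligned reads), which were used as counts. All 48 columns matched 1 sample each by name. The 10 genes, the lists and the rule for named genes were chosen with earlier results of these data known. The rule took the 10 members, up to 4 called genes per list with the largest change, and the 5 genes of most similar profile.

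Counts were tested with edgeR 4.0.16 (quasi-likelihood F test, TMM, filterByExpr) in R 4.3.3. The fits held the groups of each question: IFN-γ and PBS; the 6 groups of Model B; the 4 with IFN-γ; the 4 without; and all 8 for interactions. Alternatives were DESeq2 1.42.0, RLE scaling, no filter on low counts, 1 fit of all groups, a replicate block, both label series, no fold minimum and leaving out each replicate. Intervals are 95% from the fit, and p-values measure the spread between 3 libraries of a group. The paper counts 6 biological replicates over independent experiments. The labels do not say what separates the 3 used here, so their spread may be technical. Over 276 library pairs, chi-square per degree of freedom was at least 3.89, so none counted as a repeat deposit. Motifs and promoters come from RefSeq windows, and gene positions and exon lengths from GENCODE M21. 1 regulator that the rule names is not reported here.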

Additional observations from a re-analysis of the deposited data

Results flagged for a closer look

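The IFN-γ response differed with the peptide, by a test of the interaction in edgeR, for 2 members. Of all genes tested, 18.9% were called in either direction with LE and 7.96% with SE. Psmb10 had an interaction of -0.82 on the log2 scale with LE and -0.71 with SE, and Psmb8 had -0.78 with SE. For each of these the response was positive with and without the peptide, and smaller with it.

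The HLA-labelled libraries were used above only by label and in the fit of both series together. In them the members were high under the LE and PE labels, which give no IFN-γ. The median over the 10 genes of the ratio of mean CPM to PBS was 3.27 under the LE label and 3.04 under the PE label. Whether these labels are right could not be settled here. Groups of 3 libraries were not searched for outliers.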

How the results depend on the processing

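DESeq2, RLE scaling, no filter on low counts, 1 fit of all 8 groups and the replicate block gave the same number of called members as the results above in each comparison they could be run on, 10, 10, 9 and 10 for the IFN-γ responses among them. The labels do not say whether samples with the same replicate number belong together. Correlations of same-numbered deviations across genes were -0.10 to 0.23, and in 0 of 13 group pairs were all over 0.1. Low correlations across genes cannot show that pairing is absent. The replicate block gave 1 called member for the interaction with LE and 2 with SE. Fitting both label series together gave 0 called members for IFN-γ against PBS, for each Model B comparison and for the interactions with LE and SE, and 1 (B2m) for LE in Model A.

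The HLA-labelled series alone, a choice made with the state of these libraries known, gave 0 members for IFN-γ against PBS, 0 in Model B for SE and PE and 1 for LE (Tapbp, lower), 10 for LE and 10 for PE in Model A and in the peptides alone, 10 for LE against SE and 10 for SE against PE, and 0 for the interaction with SE. Its interaction with LE had 1 called member, Psmb9 (-0.76), while Psmb10 was not called (-0.17). For this series, and for both series fitted together, the share of all genes called is not given, so these counts have no background beside them. Without the fold minimum the counts were 3, 3 and 1 in Model A, 7 and 5 for SE and PE alone, 1, 6 and 7 for the pairs of peptides, and 4 and 8 for the interactions with LE and SE. Leaving out 1 replicate number at a time gave 0 to 1 for SE alone and 1 to 2 for the interaction with LE, where Psmb8 joined Psmb10 without replicate 1 (-0.61) or 2 (-0.65). With SE the interaction had 2 to 3 called members, Tap2 joining without replicate 1 and Psmb9 without replicate 2. The share of all genes called with a replicate left out is not given either. Each member had 340 counts or more in every letter-labelled library.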
